A study of Homo sapiens with 12 samples.

Results

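Transcript levels of 10 genes were followed in LNCaP prostate cancer cells: TMPRSS2, which encodes a cell-surface serine protease, and 9 genes of the ETS family of transcription factors (ETV1, ETV4, ETV5, ERG, ELK4, ELF1, ELF3, EHF and SPDEF). The genes were found by Ensembl identifier, and all 10 were present among the 63677 identifiers counted. TMPRSS2 was chosen by its read counts over the 6 groups, where its response to androgen was seen to differ between the lines, so its comparisons are given as a description, with no test. The ETS genes were listed by family and by what is known of them in prostate cancer or epithelium, with earlier results of these data known.

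RNA-seq had been carried out in 2 sublines of LNCaP, an established androgen-responsive line, both treated with TALEN plasmids or their vector. In the Bag-1L KO line a TALEN, an engineered nuclease, had removed the start codon of Bag-1L, the longest protein made from BAG1, and the KO cells came from cells cloned by dilution. The control line was the TALEN vector control and makes Bag-1L, so effects of Bag-1L and of cloning cannot be told apart. Each line was grown in full medium (FM), or kept without hormone for 72 h in medium with charcoal-treated serum and then given ethanol (EtOH, the vehicle) or 10 nM dihydrotestosterone (DHT, the active androgen) for 16 h. The 12 samples formed 6 groups of 2 biological replicates.

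TMPRSS2 is a classical androgen-induced gene of prostate epithelium. In many prostate tumours a rearrangement places its androgen-driven promoter in front of an ETS gene, most often ERG and less often ETV1, ETV4 or ETV5, so that a factor otherwise nearly silent in prostate cells comes under androgen control. ETS factors share a DNA-binding domain that reads a GGAA core. Some of them, such as SPDEF, EHF and ELF3, belong to the normal programme of epithelial cells, and ELK4 is a partner of serum response factor. LNCaP lacks the TMPRSS2-ERG fusion of other lines and is described as carrying a rearranged ETV1 locus. Reads counted per gene do not show a fusion, so all values below are levels of whole genes.

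Between 20826843 and 30354666 reads per sample were assigned to genes, and the detection floor of 3 reads equalled 0.0988 to 0.144 CPM (reads scaled to a fixed library total). Normalized counts are reads divided by a per-sample size factor, and TPM, scaled to a fixed total too, also divides by exon length, which allows genes to be compared with each other. The luminal prostate markers KLK3, HOXB13, FOLH1, KRT8, KRT18 and EPCAM had at least 2935 reads in every sample, and their group means summed to 1716 to 2495 TPM. Markers of basal cells summed to at most 2.09 TPM, of leukocytes to 2.45, of endothelium to 3.44 and of stroma to 15.3, the last nearly all COL1A1. BAG1 mRNA, whose reads cover every protein form of the gene, lay between 1701.5 and 2702.6 normalized counts in control and between 1075.5 and 1576.1 in KO. Replicates differed by 0.238 on the log2 scale in control EtOH (median over 11374 genes, sign ignored) and by 0.0765 to 0.172 in the other groups.

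TMPRSS2 (ENSG00000184012, chr21:42836227-42903043, minus strand, GRCh37) was low in starved cells and high in the presence of androgen, and the span was widest in KO. In EtOH its normalized counts came to 1156.2 and 1321.0 (control) and to 856.8 and 803.7 (KO). After DHT control held 3156.9 and 3008.0, and KO 5724.2 and 5074.8. In FM, where the serum supplies hormone, they came to 3745.9 and 3756.5 (control) and to 6266.9 and 7050.7 (KO). The KO samples were thus the lowest of all in EtOH and the highest of all in DHT and FM, and no neighbouring groups in the order of levels overlapped (KO FM, KO DHT, control FM, control DHT, control EtOH, KO EtOH).

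**Figure D1:**
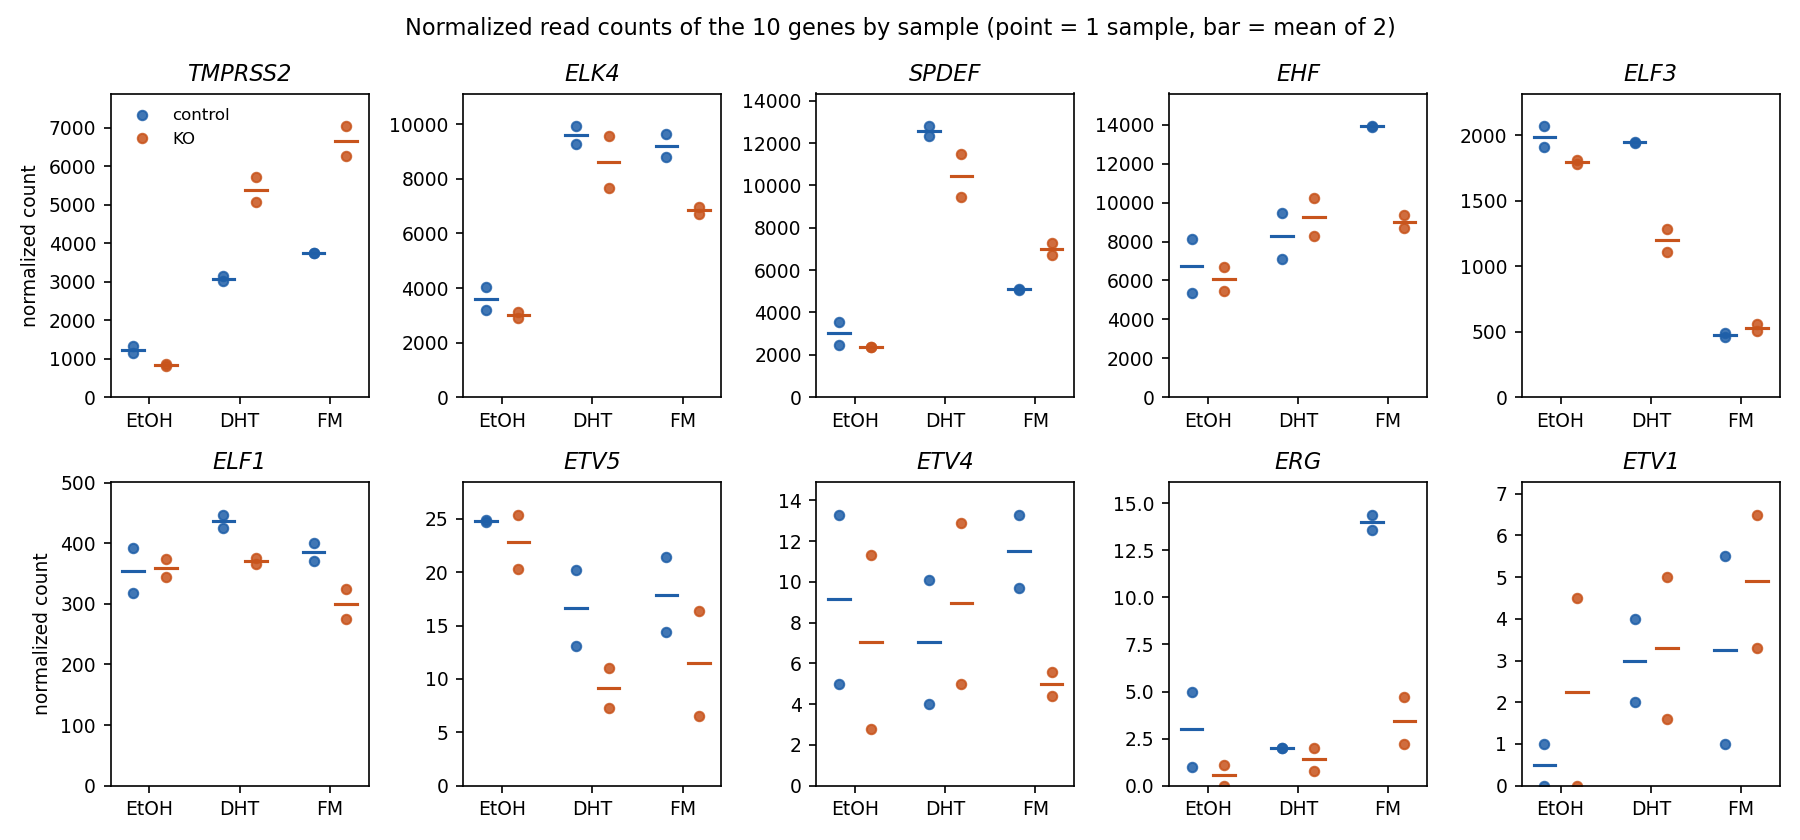
Normalized read counts (linear axes from 0, 1 panel per gene) in EtOH, DHT and FM, with a point for each sample and a bar at the mean of 2, control in blue and Bag-1L KO in orange. TMPRSS2 runs from 803.7 to 7050.7, with KO lowest in EtOH and highest in DHT and FM, whereas ETV1 never exceeds 6.5.

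Expressed as fold changes, DHT raised TMPRSS2 2.49-fold over EtOH in control (log2 1.32, standard error 0.12) and 6.51-fold in KO (log2 2.70, standard error 0.12). The difference between these responses, 1.39 on the log2 scale (standard error 0.17), is the value by which the gene was chosen. Both ends of the range contributed, since KO lay 0.58 below control on the log2 scale in EtOH (log2 -0.58, standard error 0.12) and 0.81 above it in DHT (standard error 0.11). From EtOH to FM the change was 1.60 in control and 3.0 in KO (standard errors 0.12), a difference of 1.41 (standard error 0.17). These FM responses use the same EtOH samples and are therefore not a separate observation. In both lines DHT brought TMPRSS2 close to its FM level, to 82.2% of it in control and 81.1% in KO.

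In FM the KO line held 6658.8 ± 554.2 normalized counts and the control line 3751.2 ± 7.5 (SD, n = 2 each). KO was 1.77-fold higher (log2 0.83, standard error 0.11), a size and direction like those seen in DHT. Of 15000 genes tested in this comparison, 8.01% (5.41% higher and 2.6% lower in KO) passed the threshold of an adjusted p of at most 0.05 with a fold change of at least 1.5. TMPRSS2 was chosen by its counts in all 6 groups, so its value in FM is a description too, with no test. It stayed between 0.74 and 0.91 when any single sample was left out.

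Other genes known to act as the 5′ partner of ETS fusions in prostate cancer were examined next, because like TMPRSS2 most of them are androgen-regulated. DHT raised 6 of the 9 in control and the same number in KO, past the threshold, and lowered none, beside 6.04% and 4.43% of all genes tested that were raised. The 6 were SLC45A3, a sugar transporter of the prostate (log2 2.92 in control and 3.32 in KO), NDRG1, a stress-responsive gene (3.94 and 3.55), ACSL3, a fatty acid ligase (2.52 and 2.05), the kallikrein KLK2 (2.06 and 1.91), the endoplasmic reticulum gene HERPUD1 (1.01 and 0.69) and the nucleotidase CANT1 (0.86 and 0.91). FOXP1, the RNA helicase DDX5 and the RNA-binding protein HNRNPA2B1 did not pass, with log2 values of 0.48, 0.26 and -0.07 in control. The median change over the 9 genes was 1.01 in control and 0.91 in KO, where all genes tested had medians of -0.02 and -0.01.

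None of these 9 genes passed the test that compares the DHT responses of KO and control, beside 0.408% of 13478 genes tested, and edgeR also called 0. At an unadjusted DESeq2 p below 0.05 there were 4, of which SLC45A3 had the larger response in KO (0.39, standard error 0.16) and ACSL3 (-0.47), HERPUD1 and NDRG1 the larger one in control. No share of all genes at that unadjusted level was computed, here or for the lists below. From EtOH to FM SLC45A3 gained 2.61 (control) and 3.24 (KO) on the log2 scale. The gap of 0.63 between these (standard error 0.16, adjusted p = 0.0149) passed, as did 1.39% of genes tested (0.748% with the larger value in KO and 0.64% with the smaller). With edgeR it was 0.65 and did not pass (adjusted p = 0.0924), and it passed in 5 of the 12 fits that left out a sample (0.58 to 0.67). SLC45A3 had 14782.7 and 14989.1 normalized counts in control and 20450.5 and 20772.9 in KO. Levels under DHT went the other way for several partners: NDRG1 (-1.02), HERPUD1 (-1.20) and ACSL3 (-0.76) were lower in KO than in control in DHT, past the threshold, and none of the 9 was higher. Of all genes tested there, 3.32% were lower and 4.66% higher. In EtOH HERPUD1 (-0.88) and NDRG1 (-0.63) were lower in KO, beside 2.31% of all genes. In FM KLK2 was higher (0.71) and ACSL3 lower (-0.60), beside 5.41% of all genes higher and 2.6% lower. The ACSL3 call, at the fold change minimum, was lost with edgeR (-0.58). FM against EtOH raised ACSL3, SLC45A3, NDRG1 and KLK2 in both lines, beside 9.81% of genes raised in control and 9.61% in KO.

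**Figure D2:**
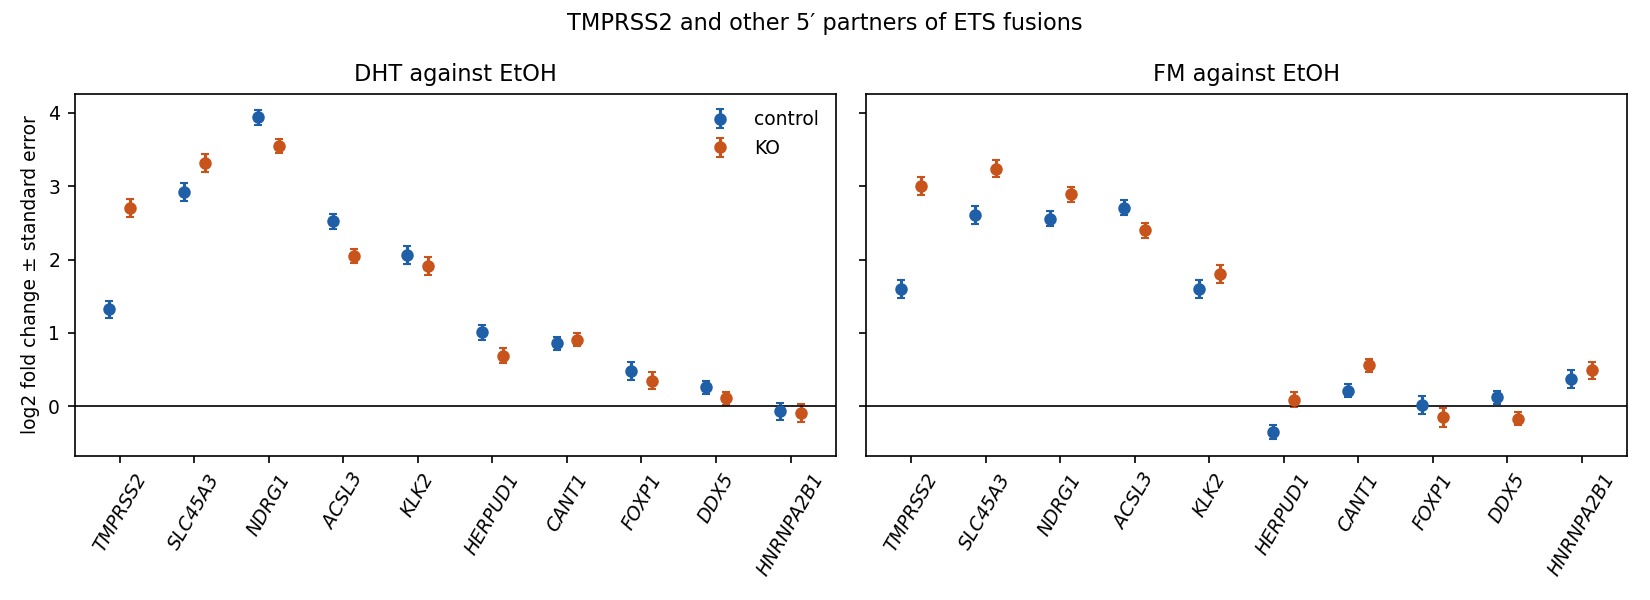
Log2 fold changes with standard errors for DHT against EtOH (left) and FM against EtOH (right), control in blue and KO in orange, for TMPRSS2 and 9 other 5′ partners of ETS fusions. For TMPRSS2 the values of control and KO are 1.32 and 2.70 with DHT and 1.60 and 3.0 in FM. The gene was chosen by the first gap and the second shares its EtOH samples, so no rank among these genes is read.

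The genes around TMPRSS2 on chromosome 21 were examined as well. Of 7 protein-coding genes within 500 kb (FAM3B, MX1, MX2, BACE2, RIPK4, PRDM15 and C2CD2), none passed with DHT in either line in DESeq2. Of all genes tested, 11.4% passed in control and 7.68% in KO. At an unadjusted DESeq2 p below 0.05 there were 4 of the neighbours in each line. The medians of the log2 values were -0.31 (control) and -0.35 (KO), where all genes tested had medians of -0.02 and -0.01. In control edgeR called MX1 (-0.90) and FAM3B (-1.21). MX1, an interferon-induced GTPase on the opposite strand whose annotated end overlaps that of TMPRSS2 by 5772 bases, had 25 to 70 reads per sample and changed by -0.88 with DHT in control (standard error 0.37, adjusted p = 0.0728). TMPRSS2 had 758 to 7095 reads. Whether strand was used in counting was not given in the sources used here. BACE2, a membrane protease, was the only neighbour past the threshold for KO against control in DHT. It was lower in KO (log2 -0.73, adjusted p = 0.0322), where 3.32% of all genes were lower. C2CD2 was higher there (0.32, adjusted p = 0.0336), under the fold change minimum. BACE2 fell from EtOH to FM in both lines (-1.37 and -0.91), while the zinc-finger gene PRDM15 rose in control FM (0.60). Of all genes tested, 11.5% fell from EtOH to FM in control and 9.68% in KO, and 9.81% rose in control. With DHT PRDM15 had a log2 value of 0.38 in control (adjusted p = 0.0415), under the fold change minimum.

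The genes most like TMPRSS2 in their counts were listed next, a choice that by itself gives high correlations. Over the 12 samples and 11374 genes with a mean of at least 100 normalized counts, the highest Pearson correlations of log2 counts with TMPRSS2 were those of CHRNA2, a nicotinic receptor subunit (r = 0.981), CENPN, a centromere protein (0.981), FAM110B (0.975), ENSG00000261061, which has no symbol (0.975), and PRDX6, a peroxiredoxin (0.974). CHRNA2 went from 57.0 normalized counts in EtOH to 799.8 in DHT in control and from 56.9 to 1616.2 in KO, with 2272.6 in KO FM. CENPN went from 819.1 to 3019.8 and from 527.5 to 3606.2, with 4482.3 in KO FM. The 12 samples share groups of 2 and a common scaling, and the correlations are a description of these libraries. For ETV1 the 5 highest values ran from 0.816 to 0.758 (OLA1P1, LYSMD1, TPCN2, TTI2 and ALAS1), and its counts were too low for a pattern to be read.

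Among relatives of TMPRSS2, the type II transmembrane serine proteases and their inhibitors, 18 genes were examined and 14 had enough reads to enter the fit. The most abundant were the inhibitors SPINT1 (mean 262 TPM) and SPINT2 (117), the matriptase gene ST14 (162) and HPN, which encodes hepsin (117), beside 76.5 TPM for TMPRSS2. None of these 4 changed with DHT past the threshold in either line. TMPRSS6, which encodes matriptase-2, went against TMPRSS2: it fell with DHT in control (log2 -1.31, standard error 0.26, adjusted p = 1.06e-05) and in KO (-0.84, standard error 0.23, adjusted p = 0.00309), and fell further in FM (log2 -3.52 in control and -3.92 in KO). It was higher in KO in EtOH (1.21) and DHT (1.67). TMPRSS4 fell with DHT in control (-0.95) and had -0.21 in KO, with a difference of 0.74 (standard error 0.36) that did not pass. It was higher in KO in DHT (1.39) and FM (1.35). TMPRSS11E was lower in KO in DHT (-1.70, adjusted p = 0.00495) and TMPRSS13 in FM (-0.78, adjusted p = 0.00736). TMPRSS11E rose with DHT in both lines (1.95 and 2.06), from at most 13.9 normalized counts. In FM against EtOH HPN fell in both lines (-1.29 and -0.62), as did TMPRSS13 (-0.67 and -1.33), and SPINT2 fell in control (-0.61). TMPRSS4 fell in control, from a mean of 103.2 to 58.2 normalized counts, and TMPRSS11E rose in KO, from 3.7 to 13.3. Of 11 genes tested for FM, 5 fell and 0 rose in control, and 3 fell and 1 rose in KO. Of all genes tested, 11.5% fell and 9.81% rose in control, and 9.68% fell and 9.61% rose in KO. With DHT, of 11 genes of the list tested, 1 rose and 2 fell in control, where 6.04% of all genes rose and 5.37% fell. In KO 1 rose and 1 fell, where 4.43% of all genes rose and 3.24% fell.

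The ETS family was surveyed as a whole to place the 9 genes. SPDEF was the most abundant of the 28 family members in these cells (mean 494 TPM, range 180 to 866), followed by EHF (193, range 105 to 310) and ELK4 (79.5, range 33.9 to 117). ELF3 (25.8 TPM) came next after ELK1 (59.2), and ELF1 (11.8) stood lower, after ETS2 (12.8). ETV5 (0.422), ETV4 (0.333), ERG (0.077) and ETV1 (0.0432), the genes known as 3′ partners of TMPRSS2 in fusions, were all below 1 TPM in every sample. The levels in TPM rest on the combined exon length of each gene, which includes rarely used exons.

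**Figure D3:**
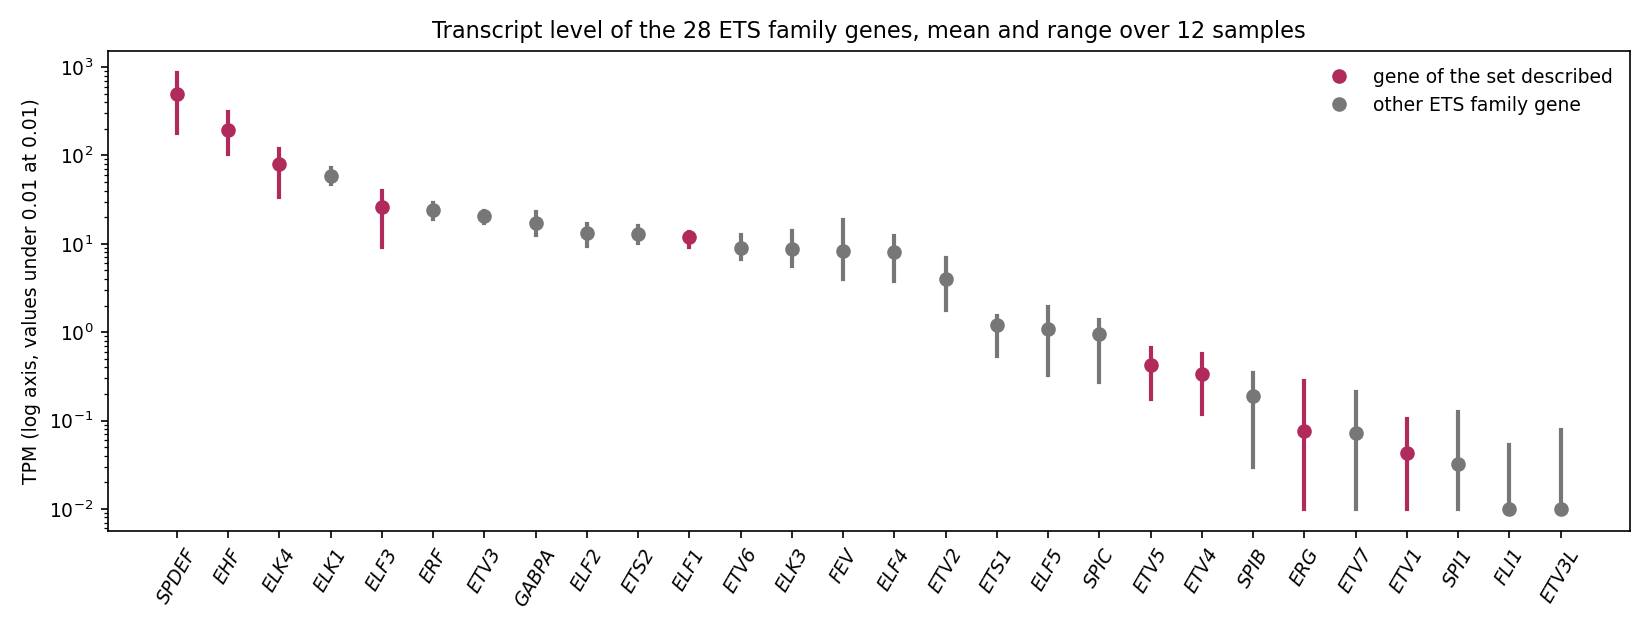
Mean TPM (log axis) and range over 12 samples for 28 ETS family genes in order of level, the 9 genes described here in red and 19 others in grey, with values under 0.01 drawn at 0.01. SPDEF, EHF and ELK4 lead at 494, 193 and 79.5 TPM, and ETV5, ETV4, ERG and ETV1 lie at 0.422 or less.

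DHT raised 2 of the 9 ETS genes in control, SPDEF and ELK4, and none fell, beside 11.4% of 17535 genes called in either direction and 5.37% called lower. In KO 3 rose, SPDEF, ELK4 and EHF, and ELF3 fell, beside 7.68% of genes called. Of the 9 genes, 7 had enough reads to be tested in these comparisons. FM against EtOH passed for 4 in control (3 higher, 1 lower) and 3 in KO (2 higher, 1 lower), beside 21.3% and 19.3% of genes called (11.5% and 9.68% lower). The test of the difference in DHT response passed for none of the 5 ETS genes that could be tested, at a level passed by 0.408% of genes, and 1 of them, ELF3, had an unadjusted DESeq2 p below 0.05. With edgeR the count was also 0.

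ELK4 (ENSG00000158711, chr1:205566684-205601139, minus strand) encodes a ternary complex factor that works with serum response factor. Its normalized counts in EtOH came to 4026.3 and 3187.1 (control) and to 2914.0 and 3112.2 (KO). DHT raised them to 9937.2 and 9273.1 in control and to 9575.8 and 7678.4 in KO. The groups did not overlap, and the rise was of like size in the lines, 1.41 in control (standard error 0.14, adjusted p = 6.63e-23) and 1.52 in KO (standard error 0.14, adjusted p = 3.37e-26), a difference of 0.10 (standard error 0.19). In FM ELK4 stood at 8790.5 and 9649.0 in control and at 6985.0 and 6725.2 in KO, which was lower (log2 -0.43, adjusted p = 0.0155) without reaching the fold change minimum. SLC45A3 lies 25839 bases upstream of ELK4 on the same strand, and chimeric SLC45A3-ELK4 transcripts are known in prostate cells. The counts do not separate such transcripts from those of ELK4 itself, and the part of the rise of SLC45A3 in that of ELK4 was not tested.

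SPDEF (ENSG00000124664, chr6:34505579-34524110, minus strand), the prostate-derived ETS factor of luminal and secretory cells, had the largest DHT response of the 9 ETS genes in both lines among those tested. It had 2452.3 and 3572.0 normalized counts in control EtOH and 2346.6 and 2383.8 in KO EtOH. With DHT it reached 12335.0 and 12801.6 in control and 9447.5 and 11472.3 in KO. The log2 changes were 2.06 in control (standard error 0.15, adjusted p = 1.13e-38) and 2.14 in KO (standard error 0.15, adjusted p = 1.53e-41), with a difference of 0.08 (standard error 0.22). Unlike TMPRSS2, SPDEF stood higher after DHT than in FM, at 247% of the FM level in control and 149% in KO. Its FM counts came to 5116.4 and 5072.6 (control) and to 6736.0 and 7266.6 (KO). The rise from EtOH to FM was 0.76 in control (adjusted p = 8.02e-06) and 1.57 in KO (adjusted p = 1.84e-22), and the difference of 0.81 (standard error 0.22, adjusted p = 0.0213) passed. It did not pass with edgeR (0.82, adjusted p = 0.0926) or in 7 of the 12 fits that left out a sample, which gave 0.51 (without replicate 2 of control EtOH) to 1.05.

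The 250 bases before the RefSeq start of the ELK4 and SPDEF genes, which rose together with DHT, and of ELF3, which fell in FM, are shown from the RefSeq promoter table (GRCh38.p14, a different build from that of the counts), each read 5′ to 3′ on the strand of its gene. Capitals mark the letters CCGGAAGT, a strong ETS site, on either strand. They were found in ELK4 alone of these, with the first base 22 bases before the start (chr1:205632012-205632261, minus strand), and in 3.42% of all 35116 windows of this length. SPDEF is at chr6:34556330-34556579 (minus strand) and ELF3 at chr1:202010337-202010586 (plus strand). The table held 18 windows for 7 of the 10 genes. TMPRSS2, ETV4 and ETV5 were not among them.
ELK4: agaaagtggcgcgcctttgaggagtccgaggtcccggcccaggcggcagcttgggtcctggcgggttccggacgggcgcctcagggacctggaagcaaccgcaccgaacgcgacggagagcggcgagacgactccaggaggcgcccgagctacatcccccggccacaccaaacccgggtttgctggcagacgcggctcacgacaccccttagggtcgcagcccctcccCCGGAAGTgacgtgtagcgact
SPDEF: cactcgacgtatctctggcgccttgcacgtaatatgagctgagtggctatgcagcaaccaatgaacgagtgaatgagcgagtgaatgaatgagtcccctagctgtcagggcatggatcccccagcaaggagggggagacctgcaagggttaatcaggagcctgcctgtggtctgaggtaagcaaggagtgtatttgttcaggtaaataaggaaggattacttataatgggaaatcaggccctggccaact
ELF3: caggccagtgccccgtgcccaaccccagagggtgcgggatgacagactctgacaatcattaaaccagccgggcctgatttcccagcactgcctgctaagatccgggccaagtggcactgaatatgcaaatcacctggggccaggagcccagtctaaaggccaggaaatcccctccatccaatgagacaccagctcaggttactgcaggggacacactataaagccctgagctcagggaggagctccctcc

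ELF3 and EHF, ETS factors of epithelial tissues, moved in opposite directions between EtOH and FM. ELF3 (ENSG00000163435, chr1:201977073-201986311, plus strand) had 487.0 and 456.2 normalized counts in control FM and 557.8 and 503.1 in KO FM. In EtOH it was far higher, at 1906.1 and 2069.0 in control and 1780.3 and 1812.5 in KO. The change from EtOH to FM was thus -2.08 in control (standard error 0.12, adjusted p = 9.54e-62) and -1.76 in KO (standard error 0.12, adjusted p = 4.06e-45). DHT did not bring ELF3 back towards its FM level in control, where it had 1946.5 and 1941.8 counts (log2 -0.03, standard error 0.12). In KO DHT it had 1109.3 and 1281.9, below both EtOH samples (log2 -0.59, standard error 0.12, adjusted p = 1.14e-05).

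In DHT ELF3 was therefore lower in KO than in control by 0.70 on the log2 scale (log2 -0.70, standard error 0.12, adjusted p = 9.04e-08), and it was the only ETS gene of the 9 to pass there, beside 7.98% of genes. The difference in DHT response, -0.56 (standard error 0.16, adjusted p = 0.112), did not pass, except without replicate 2 of control EtOH (-0.62). The fall in KO lies at the fold change minimum of 1.5 and did not reach it with edgeR (-0.58), with TMM scaling (-0.58), without replicate 2 of control FM (-0.58) or of KO EtOH (-0.57), or without replicate 1 of KO DHT (-0.48). ELF3 overlaps its antisense gene ELF3-AS1. Without the strand setting it is not known whether reads of the shared stretch were counted or dropped.

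EHF (ENSG00000135373, chr11:34642640-34684835, plus strand) was highest in control FM, at 13905.8 and 13940.5 normalized counts. It had 9351.3 and 8704.6 in KO FM, lower by 0.62 (log2 -0.62, standard error 0.19, adjusted p = 0.00832). It was the only ETS gene of the 9 to pass in that comparison, beside 8.01% of all genes (2.6% lower in KO). Without either replicate of control FM, or without replicate 2 of KO FM, it did not pass (log2 -0.58 to -0.63). In EtOH the counts came to 8109.6 and 5346.6 (control) and to 5483.3 and 6686.4 (KO), and these groups overlapped. After DHT control held 9451.6 and 7081.2, and KO 10255.1 and 8305.9, a change of 0.30 in control (standard error 0.19, adjusted p = 0.299) and 0.61 in KO (standard error 0.19, adjusted p = 0.0112). The KO value passed, but not without replicate 1 of KO EtOH (0.47) or of KO DHT (0.45). The difference in response was 0.31 (standard error 0.26), which did not pass. From EtOH to FM EHF rose by 1.05 in control (adjusted p = 2.07e-07) and by 0.57 in KO, under the fold change minimum.

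ELF1 (ENSG00000120690, chr13:41506060-41635576, minus strand), a widely expressed ETS factor, had the narrowest range of the 5 more abundant genes among the 9 ETS genes. Its 12 samples ran from 275.1 to 447.2 normalized counts, and no comparison passed. Between the lines it differed most in FM, with 324.6 and 275.1 against 371.1 and 400.7 (log2 -0.36, standard error 0.16, adjusted p = 0.0983).

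**Figure D4:**
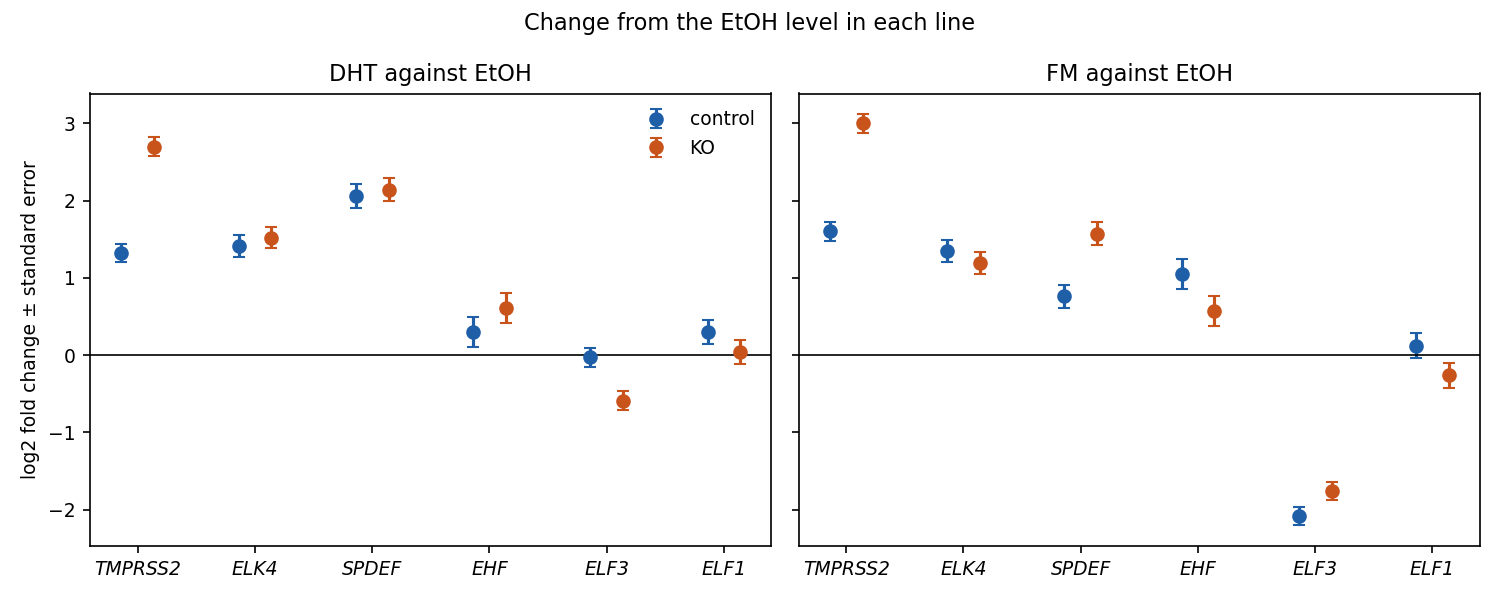
Log2 fold changes with standard errors from EtOH to DHT (left) and from EtOH to FM (right), control in blue and KO in orange, for TMPRSS2 and the 5 ETS genes with more than 200 reads in every sample. SPDEF rises by 2.06 and 2.14 with DHT but by 0.76 and 1.57 in FM, while ELF3 falls in FM by 2.08 and 1.76.

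ETV1, ERG, ETV4 and ETV5, known as 3′ partners of TMPRSS2 in fusions, had at most 27 reads in any sample. ETV1 (ENSG00000006468, chr7:13930854-14031050) had between 0 and 7 reads in a sample, and had at most 5 in DHT in either line. The line is described elsewhere as overexpressing ETV1 from a rearranged locus, and these counts were near the floor. ERG (ENSG00000157554, chr21:39751949-40033704) had 13 and 14 reads in control FM and 0 to 5 in every other sample, so that control FM stood apart from all groups. Its change there against EtOH was 2.25 (standard error 1.11, unadjusted p = 0.0432) and DESeq2 gave it no adjusted p because of its low counts, while edgeR called it (log2 2.20, adjusted p = 0.0197). ERG is the only 1 of these 4 that either tool called. ETV4 (ENSG00000175832, chr17:41605212-41656988) had 3 to 16 reads and ETV5 (ENSG00000244405, chr3:185764103-185828107) 7 to 27. For ETV5, the 2 samples of KO DHT, with 9 and 11 reads, lay below those of KO EtOH, with 18 and 27, and this did not pass (log2 -1.35, standard error 0.60, adjusted p = 0.134). For ETV1, ETV4 and ETV5 no change was detectable at this depth.

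ETV4 and ETV5 are known as outputs of the MAP kinase pathway, and 8 other genes used to read that pathway were examined beside them. The feedback regulator SPRY2 rose with DHT in control (log2 1.08, adjusted p = 5.22e-06) and KO (1.46, adjusted p = 7.47e-10) and also in FM (0.91 and 1.42). The ephrin receptor gene EPHA4 fell with DHT in control (-1.38) and in FM in both lines (-1.60 and -1.24), and was higher in KO in DHT (1.71, adjusted p = 0.000873), from 15.1 normalized counts in control. The phosphatase gene DUSP4 rose in FM in both lines (0.72 and 0.95) and was lower in KO in EtOH (-0.63). Of the 8, 7 were tested for DHT, of which 1 rose and 1 fell in control and 1 rose in KO, beside 11.4% and 7.68% of all genes called. For FM against EtOH 7 were tested, of which 2 rose and 1 fell in each line, beside 21.3% and 19.3% of all genes called. CCND1, DUSP6, EPHA2, PHLDA1 and SPRY4 passed in no comparison in DESeq2, whereas edgeR called EPHA2, PHLDA1 and SPRY4 in at least 1 each.

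The levels of the 9 ETS genes in KO and control were compared in each condition. In EtOH none passed, in DESeq2 or edgeR, beside 5.11% of 16521 genes tested (2.8% higher and 2.31% lower in KO). SPDEF (log2 -0.35) was the 1 with an unadjusted DESeq2 p below 0.05, and without replicate 1 of control EtOH it passed (-0.60). In DHT ELF3 passed (3.32% of all genes were lower), and in FM EHF (2.6% of all genes were lower), with 6 of the 9 tested each time. Over those tested, the median log2 difference of KO against control was -0.15 in EtOH, -0.25 in DHT and -0.39 in FM, where all genes tested had medians of -0.01, -0.02 and -0.01. In FM 4 of the 6 had an unadjusted DESeq2 p below 0.05: EHF, ELF1 and ELK4, which were lower in KO, and SPDEF, which was higher (log2 0.46, standard error 0.15, adjusted p = 0.0218) but under the fold change minimum.

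**Figure D5:**
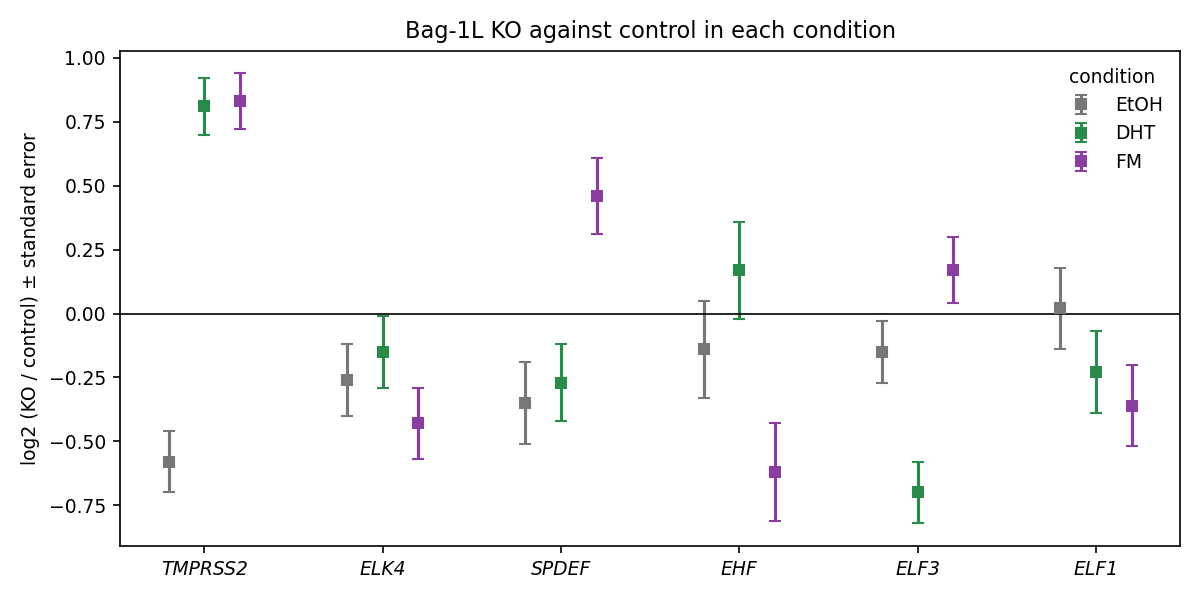
Log2 ratio of Bag-1L KO to control with standard errors in EtOH (grey), DHT (green) and FM (purple) for TMPRSS2 and 5 ETS genes. TMPRSS2 lies at -0.58 in EtOH and at 0.81 and 0.83 in DHT and FM, ELF3 is lowest in DHT at -0.70 and EHF in FM at -0.62.

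The other 19 genes of the ETS family gave a background for these 9. With DHT, ELF4 (log2 0.71 in control and 0.66 in KO) rose in both lines and FEV in control (0.97), while ELK3, a ternary complex factor like ELK4, fell in control (-0.76, standard error 0.16, adjusted p = 2.69e-05). In KO FEV had 0.68 (DESeq2 adjusted p = 0.0712), and edgeR called it. ELK3 had -0.45 in KO (adjusted p = 0.0473), under the fold change minimum. The differences in DHT response (-0.29 for FEV and 0.31 for ELK3) did not pass. ELK3 was also lower in KO in EtOH (-0.65, adjusted p = 0.000942) and in FM (-0.75, adjusted p = 0.000142), and FEV was higher in KO in FM (1.08, adjusted p = 0.000192). Of the 19, 16 entered the fit and 14 were tested for DHT, of which 2 rose and 1 fell in control and 1 rose in KO, beside 11.4% and 7.68% of all genes called. From EtOH to FM, ELF4 (0.79 and 0.75) and FEV (0.84 and 1.81) rose in both lines, ELF5 rose (1.16) and ETV2 fell (-1.56) in control, and ETV6 fell in KO (-0.71). Of 15 tested for FM, 3 rose and 1 fell in control and 2 rose and 1 fell in KO, beside 21.3% and 19.3% of all genes called. ETS1, ETS2, GABPA and ERF passed in no comparison in DESeq2. FLI1, SPI1 and ETV3L, ETS genes known from blood or endothelial cells in the case of the first 2, had at most 3 reads in any sample.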

How the data were processed

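Poly(A) RNA libraries had been prepared with a stranded TruSeq kit, and per the labels and the study's methods the authors made reads with CASAVA 1.7, mapped them to GRCh37 with TopHat2 2.0.11 and used HTSeq (0.5.3p3) to count them by Ensembl gene. The deposited values are raw read counts without normalization. HTSeq drops reads that match several places or several genes, so overlapping and near-identical genes are undercounted. Its 5 tallies of unassigned reads, 26.9% to 31.5% of each file's total, were left out. Strand setting and Ensembl release were not given in the sources used here.

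Symbols, positions and exon lengths came from GENCODE v44 lifted to GRCh37, which held 55665 of the 63677 identifiers. Genes with at least 10 counts over all samples (26156) were fitted in R 4.3.3 with DESeq2 1.42.0, the tool and thresholds the study used: 1 fit of 12 samples, a coefficient per group, median-of-ratios size factors, Wald tests, unshrunken log2 fold changes, Benjamini-Hochberg adjustment over all genes tested. The threshold was an adjusted p of at most 0.05 and a fold change of at least 1.5. The fit was also run on counts simulated from its own model, which cannot show how well that model suits these data. With 2 replicates per group, SDs and p-values rest on little information.

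The genes and lists were chosen with earlier results of these data known. All 10 genes are named, with listed genes that passed, neighbours within 500 kb, and the 5 genes most like TMPRSS2 and ETV1. The replicate numbers gave no common pairing of the samples over all groups. Alternatives were edgeR 4.0.16 with TMM, TMM size factors, no low-count filter, only the groups compared, a replicate block, and each of the 12 samples left out. Some marker genes and a promoter motif are not reported here.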

Additional observations from a re-analysis of the deposited data

Results flagged for a closer look

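The responses of TMPRSS2 differed between the lines, by 1.39 on the log2 scale for DHT and by 1.41 for FM, each larger in KO. The first is the value by which the gene was chosen and the second shares its EtOH samples, so neither is given as a test. SPDEF was noted because its FM response was larger in KO by 0.81 in the test of the difference, and SLC45A3 because its FM response was larger in KO by 0.63. Neither passed with edgeR. No explanation was tested for these differences. Groups of 2 samples are too small for a check of single deviating samples.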

How the results depend on the processing

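With 2 samples per group, every standard error rests on a spread borrowed across genes, and the 4 genes under 1 TPM are limited by depth. The TMPRSS2 values kept their direction in every alternative. The count of ETS genes past the threshold changed with edgeR for the difference in FM response, to 0 from 1, where SPDEF had 0.82, fell to 3 from 4 for DHT in KO, where ELF3 was lost, and rose to 5 from 4 for FM in control, where ERG was added. Leaving out single samples gave 2 to 4 genes for DHT in KO, 0 to 1 for the difference in DHT response, 0 to 1 for KO against control in EtOH, 0 to 1 in FM, and 0 to 2 for the difference in FM response. Without replicate 1 of control EtOH SPDEF passed in EtOH (-0.60, KO against control) and EHF passed for DHT in control (0.63). Over all genes, the count for the difference in DHT response was 55, against 24 with edgeR, 19 with only the groups compared and 16 (without replicate 2 of KO EtOH) to 155 (without replicate 2 of control EtOH) when a sample was left out. For the difference in FM response it was 180, against 65 with edgeR, 281 with the replicate block and 49 to 2124 when a sample was left out, the highest without replicate 1 of control EtOH. For KO against control in EtOH it was 844, against 531 with only the groups compared, 429 with the crossed block, 480 without replicate 2 and 549 without replicate 1 of KO EtOH, and 1439 without replicate 1 of control EtOH. In FM it was 1202, against 520 without replicate 2 of control FM and 553 without replicate 2 of KO FM, and in DHT 1278, against 720 without replicate 2 of control DHT. The replicate numbers were checked by correlating replicate differences between groups, which gave -0.415 to 0.692 over 15 pairs. Of these, 8 were positive and the mean was 0.033, so the numbers gave no common pairing over all groups. The highest value was that of control DHT with control EtOH. Whether some groups share a batch was not tested. With the replicate block the counts of ETS genes past the threshold were 2 for DHT in control, 4 for DHT in KO, 4 and 3 for FM against EtOH in control and KO, 1 for KO against control in DHT and FM, 0 in EtOH, and 0 and 1 for the differences in DHT and FM response, and TMPRSS2 kept its FM difference at 0.83. The block changed no call of a single ETS gene. A block with crossed numbers, added after the data were seen and run for the 5 comparisons of negatively correlated groups, lost ELF3 for DHT in KO (-0.57).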
